A study of Homo sapiens with 197 samples.

Results

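ADAM12 was followed across every lane of a kinase screen in IMR90 cells, as 1 of the 61 endogenous and housekeeping rows counted in each lane and 1 of the 42 rows for tissue-restricted genes. The row was taken by its name from the raw counts of all kinase, IMR90, SW39 and reference lanes. Counts were scaled lane by lane, first on the 6 positive-control rows and then on PGK1, TBP and TUBB2A, and the result is called a normalized count. The unscaled count is given beside it wherever the number of barcodes limits the value.

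In the screen, wells of IMR90, a non-transformed line of human fetal lung fibroblasts, were each infected with a retrovirus encoding 1 kinase carrying a myristoylation signal, and total RNA was taken after 4 days. The labels name 192 kinases in the collection, of which all but 8, HK1 included, have counts here, each in 1 lane except PIK3CG and PTK2, which have 2. The 2 IMR90 controls (3 lanes) are labelled empty vector, and the study's text describes control wells given the empty virus. The text also speaks of IMR90 without infection, so whether these controls received the virus is uncertain. The 2 SW39 samples are RNA of transformed derivatives of IMR90 and the 6 reference lanes hold 1 commercial mixture of human cancer cell line RNA. RNA was counted with the Nanostring system, in which colour-barcoded probes are hybridized and counted without amplification. Lane totals were 29629 to 340763 counts in kinase wells, 132257 to 152599 in IMR90 controls, 123789 to 142790 in SW39 and 108768 to 233536 in the reference lanes. The HK1 lane, in which ADAM12 had 1 count and the scaling factor came to 2136, was left out of what follows.

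ADAM12 is a membrane-anchored disintegrin and metalloprotease that is abundant in placenta, is low in most resting adult tissues, and is known to rise in fibroblasts exposed to TGF-beta, in fibrosis and in carcinomas. MAP3K7, also called TAK1, is a kinase that relays signals from receptors for TGF-beta, interleukins and TNF. It is known to act on the IKK complex of the NF-kB pathway and, through MAP2 kinases, on the p38 and JNK kinases. MAP3K8 (TPL2), MAP3K14 (NIK), TBK1 and IKBKE are further kinases of NF-kB signaling, ACVR1 and AMHR2 are receptors of the TGF-beta family, and MAPK12, MAPK13, MAPK14, MAP2K6 and MAP2K7 belong to the p38 and JNK branch.

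The sequence just before the start of the ADAM12 gene is shown to place the transcript that was counted. RefSeq (GRCh38.p14) puts these 250 bases at chr10:126388478-126388727 on the minus strand, and each CpG is in capitals.
ADAM12: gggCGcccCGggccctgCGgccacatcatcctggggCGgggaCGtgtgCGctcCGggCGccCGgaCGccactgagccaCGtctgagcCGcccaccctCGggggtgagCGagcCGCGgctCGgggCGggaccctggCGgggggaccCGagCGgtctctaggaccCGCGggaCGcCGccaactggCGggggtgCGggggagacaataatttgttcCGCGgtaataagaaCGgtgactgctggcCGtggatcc
The window held 31 CpG sites and 73.6% G and C, against medians of 11 CpG sites and 58% over 35116 promoters of the same length. At least as many CpG sites were present in 10.8% of those promoters. On both strands, the window held 1 match to the SMAD box CAGAC, which 38% of promoters hold, and no match to the AP-1 motif TGANTCA (6.57% of promoters), the TATA box TATAAA (10.7%) or the NF-kB consensus (9.96%). These matches describe letters in this window. Methylation and factor binding were not measured in these files.

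ADAM12 was counted above background in all groups. By median, the order was IMR90 controls, kinase wells other than MAP3K7, SW39 and reference RNA, with the MAP3K7 well above them. Both IMR90 controls lay inside the range of these kinase wells, and the difference between the 2 groups did not pass its test (exact permutation p = 0.178). The IMR90 controls had 36 counts in replicate 1 and 46 and 30 counts in the 2 lanes of replicate 2. Scaled, these were 35.8, 47.8 and 31.5 normalized counts, and the 2 wells came to 35.8 and 38.8. The lanes of replicate 2 thus lay farther apart than the wells. The second of these lanes carries the sample number that the first run gave to IMR90 replicate 1, also a control, so its identity is uncertain. All 3 lanes were above the negative-control level of a lane, the mean + 2 SD of its 8 negative-control rows, which was 25.9 counts for replicate 1. The SW39 samples had 93.7 and 120.9 normalized counts, from 259 counts between them, and did not overlap with the controls. The reference lanes had 177.8, 164.6, 133.1, 149.2, 145.02 and 146.05 normalized counts, all above both SW39 samples, from 158 to 461 counts. Since these lanes repeat 1 RNA, their SD of 15.9 around a mean of 152.6 (n = 6 lanes) measures the assay and not biological spread.

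The kinase wells other than MAP3K7, called the other kinase wells below, ranged from 26.7 to 105.3 normalized counts, with a median of 45.8 and a middle range of 39.9 to 52.4. In 99.5% of them ADAM12 was within 2-fold of that median. Both controls were exceeded in 78.6% of these wells, 16 wells lay between the controls and 23 lay below both. With the first lanes only, so that IMR90 replicate 2 stood at 47.8, the share above both controls was 42.9%, and with scaling on positive controls only it was 90.7%. PIP5K2A was the 1 well above the lower SW39 sample, and 0 reached the lowest reference lane. ADAM12 exceeded the negative-control level in all but 1 of the kinase lanes. The exception was PDIK1L, with 11 counts against a level of 13.2.

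**Figure D1:**
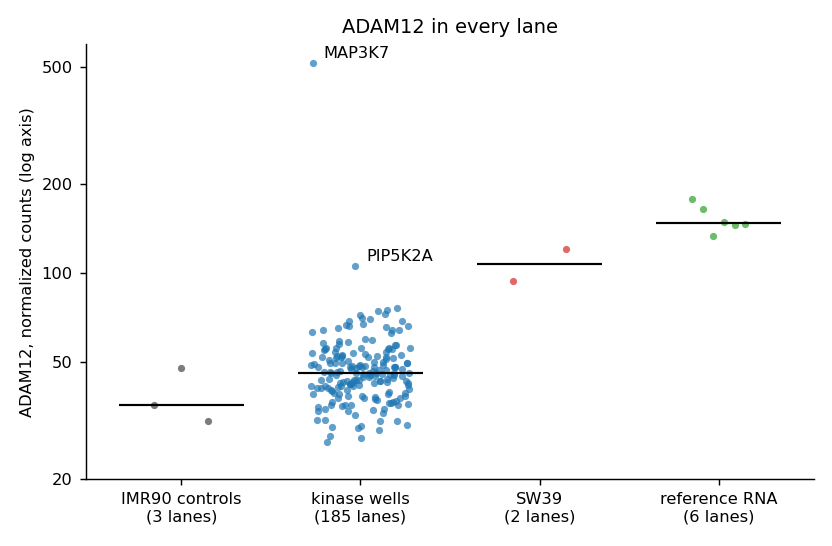
ADAM12 in normalized counts on a log axis, with 1 point per lane and a line at the median of each group. The MAP3K7 well stands at 514, above the 6 reference lanes (133.1 to 177.8), whereas the other kinase wells scatter around 45.8.

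The SW39 samples address whether the probe reports a higher level in transformed derivatives of the same cells. ADAM12 rose in SW39 by 1.49 ± 0.16 on the log2 scale (SE, n = 2 against 2), with an adjusted p of 1.4e-14 in edgeR's quasi-likelihood test over 57 endogenous rows, and by 2.24 with positive controls only. By the main test 8 rows (14%) rose in SW39, and 5 (8.77%) fell. This total of 13 rows ranged from 2 to 28 over the alternatives, was 28 (27 of them higher) with positive controls only, and was 3 or 2 without IMR90 replicate 1 or 2 and 5 or 6 without SW39 replicate 1 or 2. ATAD2, an AAA-domain chromatin factor of dividing cells, had the largest rise, by 3.89 on the log2 scale. Without IMR90 replicate 1 or replicate 2 the difference was 1.44 or 1.59 and the adjusted p in edgeR was 0.172 or 0.193. In these fits 1 control remained, and it was assumed to vary like the SW39 samples. Nothing in the labels says that replicates are separate cultures, so p-values measure the spread between these samples, which may be technical.

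The kinase wells as a whole were compared with the IMR90 controls as a group. It is uncertain whether the controls were infected, and if they were not, kinase and infection cannot be told apart here. ADAM12 averaged 46.1 normalized counts over the other kinase wells and 37.2 over the 2 controls (geometric means), a difference of 0.30 on the log2 scale. The exact two-sided permutation test over all 16836 choices of 2 wells gave p = 0.178, and an adjusted p of 0.391 over 57 rows, so the difference could not be told from the spread of the wells. It was 0.16 with the first lanes only (exact permutation p = 0.476) and 0.56 with positive controls only (exact permutation p = 0.0362, not adjusted over rows). Of the 57 rows, 3 (5.26%) were called higher in kinase wells by this test.

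The MAP3K7 well had 686 ADAM12 counts, with an exact Poisson 95% interval of 636 to 739, and 514 normalized counts. It was the highest of all kinase wells. Its Z-score, taken on log2 normalized counts over kinase wells and controls, was 8.51. Only PIP5K2A, at 2.88, also exceeded 2.5, the lower of the 2 thresholds that the methods define, whereas over all tissue-restricted rows 30 of 7686 pairs of kinase and gene (0.39%) did. The PIP5K2A call rested on 17 counts scaled by 6.2. It was lost with positive controls only, in the table deposited by the authors and without wells scaled by more than 2. Relative to the IMR90 controls, ADAM12 in the MAP3K7 well was 13.4 times as high, with an exact interval from counting error of 10.97 to 16.5. The ratio was 10.9 (10.1 to 11.8) over the lanes of all other kinases, 4.76 (4.12 to 5.52) over SW39 and 3.32 (3.03 to 3.63) over the reference RNA. The ratios to SW39 and the reference moved with the scaling, to 4.43 and 2.83 with all 4 housekeeping genes and to 3.903 and 2.14 with positive controls only. Genes used for scaling differ between these RNAs. PGK1 had 19511 to 21392 normalized counts in the reference lanes against 10339 and 10351 in the IMR90 controls, and TUBB2A had 1500 to 1820 in the reference lanes and 2318 and 2210 in SW39 against 4274 and 4228. With 1 well and 1 lane, these intervals cover counting error only, and no test against replicate error was possible.

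The 17 rows with a median above 100 counts did not share this size of change in the MAP3K7 lane. Its total count of 195732 and scaling factor of 0.749 lay inside the range of the other wells. Among these 17 rows, the largest rise was in the row named PPM1D, at 1.37 times the kinase median, followed by PGK1 (1.13), TUBB2A (1.08), the row named ZBTB38 (1.07) and the row named Tet3 (1.05). The largest falls were in the rows named ITPR2 (0.576 times the median) and Tet1 (0.588), in ATAD2 (0.693) and in the rows named NeoR (0.724) and MyrFlag (0.755). The MAP3K7 well was the second lowest of all kinase wells for the ITPR2 row, with 389.7 normalized counts against a median of 677. Of the 3 genes used for scaling, TBP, a general transcription factor, was among the lowest of all wells at 0.848 times the median, while PGK1 and TUBB2A were above it. Scaling gives these 3 the same geometric mean in every lane, so a low value of 1 is offset by the others. Their ratios are thus bound together and are no separate evidence. No ratio among the rest of the 17 rows approached that of ADAM12. Over the other tissue-restricted rows, most of them low, the Z-scores of the MAP3K7 well had a median of -1.13 and a highest value of 0.485.

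The neighbours of MAP3K7 stayed far below it. MAP3K8 was the highest of them, with 56 counts and 74.2 normalized counts, the fifth highest of all kinase wells and 1.58 times the rate of the other kinase lanes (exact interval from counting error 1.19 to 2.05). TBK1 followed with 70 counts and 66.6 normalized counts, 1.42 times that rate (1.10 to 1.79). MAP3K14 had 53.7 and IKBKE 45.6 normalized counts, and both intervals included a ratio of 1. The Z-scores of MAP3K8 and TBK1 were 1.64 and 1.26, below the threshold of 2.5. Counting intervals held the common rate of 47.1 normalized counts in 84.8% of the lanes of the other kinase wells. An interval that missed this rate was thus not particular to these neighbours. The MAP3K7 well exceeded MAP3K8 by 6.93 times (5.27 to 9.27) and MAP3K14 by 9.58 times (7.26 to 12.9). MAP3K6, the remaining kinase of the MAP3K family here, was at the kinase median with 45.8 normalized counts.

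The 2 receptors of the TGF-beta family were on either side of the median. AMHR2, the receptor of anti-Müllerian hormone, had 53.3 normalized counts from 54 counts, and ACVR1, a receptor of bone morphogenetic proteins and activins, had 43.1 from 57. Neither interval excluded the rate of the other lanes. The labels do not say whether ligand was added, and none is described for the infected wells.

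In the p38 and JNK branch, MAPK14, the p38-alpha kinase, had the highest value, 64 normalized counts. It came from 17 counts in a lane scaled by 3.76, so its interval spanned 37.3 to 102.5 normalized counts. MAPK12 (p38-gamma) had 47.4, MAP2K6, which phosphorylates p38 kinases, 41.9, MAP2K7, which phosphorylates JNK kinases, 37.8, and MAPK13 (p38-delta) 36.5 normalized counts. Every interval in this branch included the common rate of 47.1 normalized counts, so none differed from the other kinase lanes beyond counting error.

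**Figure D2:**
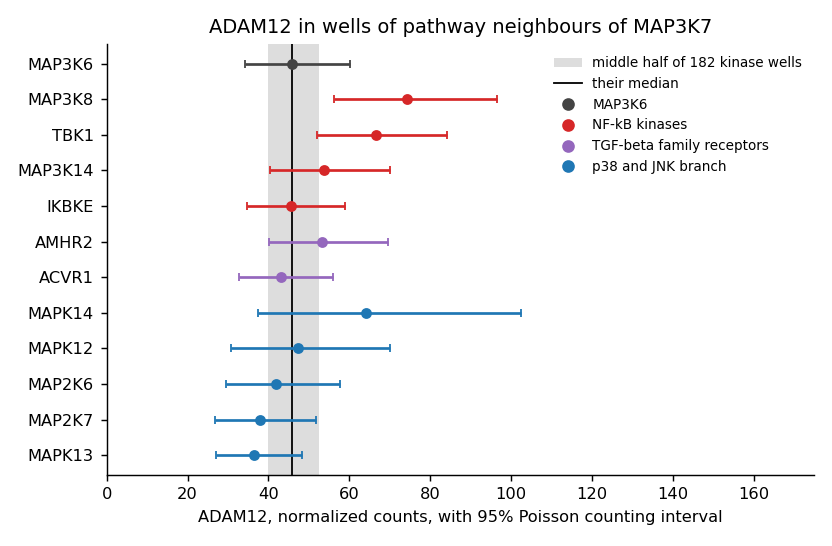
ADAM12 in normalized counts in wells of the pathway neighbours of MAP3K7, with exact 95% Poisson intervals as bars. The grey band marks the middle range of the other kinase wells (39.9 to 52.4), and the MAP3K7 well itself, at 514, lies outside the axis. MAP3K8 and TBK1 have intervals that lie to the right of the median of 45.8. Among all lanes of the other kinase wells, 84.8% had intervals that held their common rate of 47.1.

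Taken as groups, the 4 NF-kB kinases had a median of 60.1 normalized counts, a difference of 0.38 on the log2 scale from the other kinase wells. This gave p = 0.0361 in a two-sided exact rank-sum test, and an adjusted p of 0.452 over the 25 sets compared. When each well was set against the median of its block of 12 sample numbers in the labels, the difference was 0.44 with an exact p of 0.00216 and an adjusted p of 0.0541. MAP3K8 was the highest of the 11 wells in its block, at 1.98 times the median of the others, TBK1 the highest of its 9 (1.29) and IKBKE the highest of its 12 (1.08), and MAP3K14 was second of 11 (1.48). The group therefore stayed short of the adjusted threshold both ways. The TGF-beta family receptors (log2 difference 0.07, exact rank-sum adjusted p = 0.90) and the p38 and JNK kinases (-0.12, exact rank-sum adjusted p = 0.891) gave no call.

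No kinase family passed the test for ADAM12. Of the 25 sets, 21 families and 4 groups of neighbours (the receptors of the TGF-beta family stand in both), 0 passed an adjusted p of 0.05 in the exact rank-sum test, and 2 had an unadjusted p below it. The second of these was the family of calmodulin-dependent and AMPK-related kinases, whose 17 wells ran from 40.7 in MELK to 68.6 in PRKAG2 with a log2 difference of 0.10 (exact rank-sum p = 0.0196, adjusted p = 0.452). With block medians subtracted that difference was 0.04 (exact rank-sum p = 0.0717). The MAP3K wells without MAP3K7 had a log2 difference of 0.23 (exact rank-sum adjusted p = 0.836). It was 0.53 with block medians subtracted (exact rank-sum p = 0.00723, adjusted p = 0.0904), 0.42 with scaling on the positive controls alone and 0.06 with all 4 housekeeping genes.

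Among kinases of lipids and inositol, the 17 wells ranged from 36.7 in ITPKB to 105.3 in PIP5K2A. PIP5K2A, a phosphoinositide kinase, was the highest well after MAP3K7, but only 17 counts were behind it, since its lane held the smallest total (29629) and was scaled by 6.2. Its interval was 61.4 to 168.6 normalized counts. PI4K2B of the same family had 74.96 normalized counts from 71 counts, so the 2 wells could not be ordered by counting. Kinases of carbohydrate metabolism ran from 34.01 in GK, a glycerol kinase, to 65.0 in HK2, a hexokinase. Those of nucleotides, creatine and cofactors ran from 30.3 in DGUOK to 72.8 in UCK2, a uridine-cytidine kinase, whose 80 counts stood over a high negative-control level of 60.1 counts, and with the negative-control mean subtracted CKB, a creatine kinase, was the highest of them at 56.9, against 47.9 for UCK2. The highest and lowest wells of families are given before background is subtracted. With the negative-control mean subtracted, 2 of the 21 families had another highest well and 4 had another lowest.

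Cell cycle kinases lay in the same range. The cyclin-dependent kinases and their CKS partners ran from 30.6 in CDK5 to 63.9 in PCTK1. Mitotic and checkpoint kinases ran from 31.6 in PBK to 55.6 in CHEK1, the kinase of the replication checkpoint. The CHEK1 lane had 52 counts over a negative-control level of 43.995, and with the negative-control mean subtracted PLK2 was the highest at 43.1, against 34.7 for CHEK1. The casein, CLK, DYRK and HIPK kinases ran from 29.8 in HIPK1 to 67.3 in CLK3, a kinase of splicing factors.

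Kinases downstream of second messengers and growth factors spread as widely. In the AKT, SGK and ribosomal S6 kinase family the wells ran from 34.7 in the well named RPSK6A3 to 58.1 in RPS6KL1, and in the PKA and PKC family from 29.3 in PRKAR2A, a regulatory subunit, to 72.1 in PRKCD. GRK5, which phosphorylates G protein-coupled receptors, was the third highest of all kinase wells with 75.9 normalized counts from 55 counts, whereas GRK6 of the same family had 35.7. GRK5 stood in a block of sample numbers with a median of 57.1, and GRK6 in another with a median of 41.5. Their contrast was not tested apart from the blocks. The MAPK and MAP2K wells ran from 31.8 in MAP2K5 to 64 in MAPK14. Tyrosine kinases gave nothing beyond this range. Receptor tyrosine kinases ran from 36.2 in FGFR1 to 55.5 in EPHA4, and cytoplasmic ones from 35.7 in PTK2, the focal adhesion kinase, to 62.4 in FRK.

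The lowest wells of the screen came from different families. MOBKL1A, an adaptor of the Hippo pathway, was the lowest with 19 counts and 26.7 normalized counts, while MOBKL2A of the same family was the highest of the STE20 and Hippo wells at 58.4. PDIK1L had 28.1, PRKAR2A 29.3, HIPK1 29.8 and MAST1 30.1 normalized counts. For MOBKL1A, PRKAR2A and HIPK1 the interval of the ratio to the other kinase lanes lay below 1, with ratios of 0.566, 0.621 and 0.630. For PDIK1L and MAST1 it included 1. Since these wells were picked as the lowest and the intervals cover counting error only, no effect of a kinase can be read from them. The same holds for wells picked as the highest of the other kinase wells or of a family. MOBKL1A also stood in the block of sample numbers with the lowest median, 36.8. In the remaining families, the LIMK, TESK and ILK wells ran from 36.3 in LIMK1 to 49.5 in LIMK2, the RIO, ADCK, VRK and FASTK wells from 35.7 in VRK2 to 55.1 in ADCK4, the YANK and MAST wells from 30.1 in MAST1 to 46.4 in STK32A, and the unclassified wells from 28.1 in PDIK1L to 70.3 in AAK1, a kinase of clathrin adaptors.

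**Figure D3:**
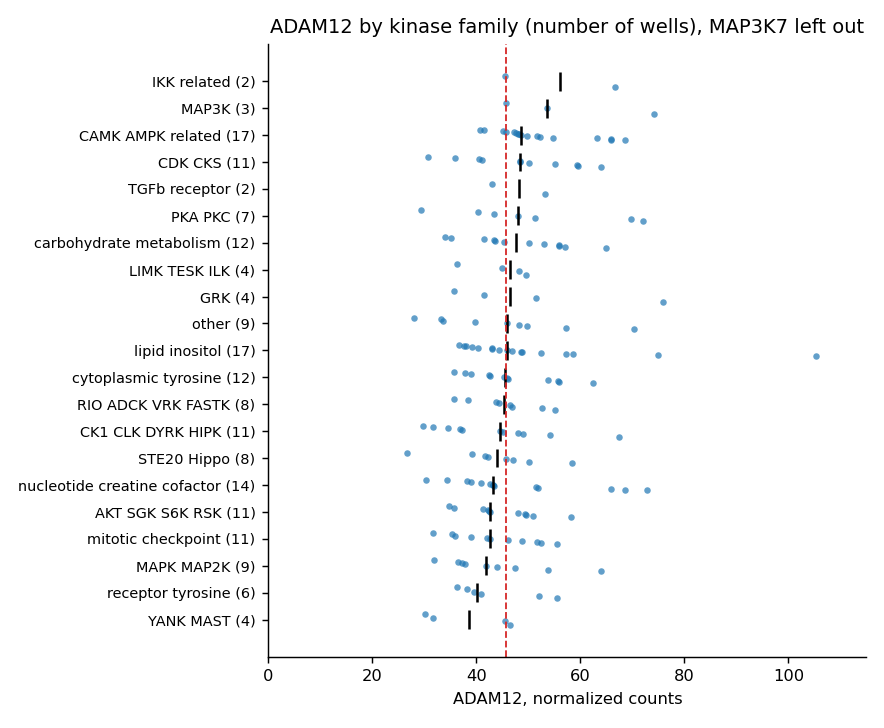
ADAM12 in normalized counts by kinase family, 1 point per well, with the number of wells in parentheses, a black bar at each family's median and a dashed line at the median of all wells shown (45.8). Families overlap throughout, and PIP5K2A among the lipid and inositol kinases is the point at 105.3.

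The spread of ADAM12 among the other kinase wells was somewhat wider than counting error. Its SD was 0.31 on the log2 scale, whereas counting error alone would give 0.22. A common rate of 47.1 normalized counts lay inside the exact 95% counting interval of 84.8% of their lanes. The kinases counted in 2 lanes had 64.2 and 34.1 normalized counts (PIK3CG) and 46.04 and 27.6 (PTK2). All 3 samples with a lane in both runs of the labels, IMR90 replicate 2 included, were lower in the second run, by 1.52 to 1.89 times, and FASTK was counted in the second run only, at 46.8. For PIK3CG and PTK2, as for IMR90 replicate 2, the second lane carries a sample number that the first run gave to another sample, so the identity of these second lanes is uncertain, and run and identity cannot be told apart.

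Part of the spread followed the order of the samples. The labels number the samples, and in the 16 blocks of 12 consecutive numbers with at least 6 wells, block membership accounted for 28.65% of the variance of log2 ADAM12 (permutation p = 0.0001, the smallest that 10000 permutations can give). Some share lies between 16 blocks without any block effect, so the share itself overstates their part, while the permutations allow for this. The highest was the third block, with sample numbers 25 to 36, a median of 59.5 normalized counts and all 12 wells above the median of the screen, from 49.7 in MPP1 to 72.8 in UCK2. UCK2, CLK3 and CHEK1, each named above as the highest of its family, stood in this block. The lowest was the fifteenth block, with a median of 36.8. Negative-control rows in the block of numbers 25 to 36 averaged 24.9 counts (median of wells), above every other block. With the negative-control mean of each lane subtracted, the median of that block was 39.4 and the highest was 47.6, in the eleventh block, and blocks still accounted for 17.79% of the variance (permutation p = 0.0048). What the number blocks stand for is not stated, and the part of background or handling in them was not tested.

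**Figure D4:**
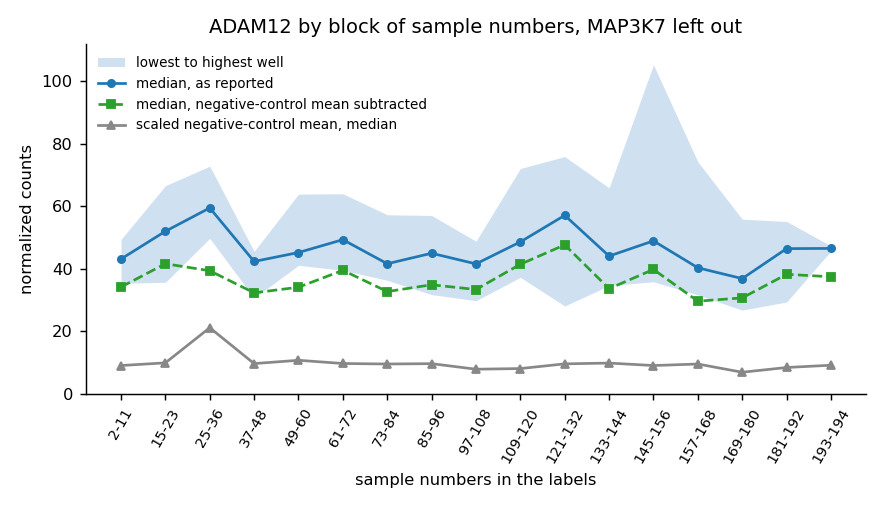
ADAM12 by block of sample numbers, in normalized counts, with the band from the lowest to the highest well, the block medians with and without the negative-control mean subtracted, and the scaled negative-control mean. The peak at numbers 25 to 36 (median 59.5) coincides with the highest negative-control mean, and the band reaches 105.3 at the block that holds PIP5K2A.

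The rows most like ADAM12 over the other kinase wells, by Spearman's rho on log2 normalized counts, were the row named UHRF1 (rho = 0.50, Pearson's r = 0.47), ALAS1, the first enzyme of heme synthesis (0.46, r = 0.50), the rows named MyrFlag (0.42, r = 0.44) and NeoR (0.37, r = 0.41), and TPTE, a testis phosphatase homolog (0.34, r = 0.29). For the first 4 the permutation p was 1e-05 and the adjusted p over 60 rows was 0.00015. Leaving out the 2 wells farthest from the row's median left r at 0.50, 0.49, 0.48, 0.41 and 0.34. TPTE had a median of 8 counts, below the negative-control level (median 20.6 counts over kinase wells), and its rho was 0.13 with the negative-control mean subtracted (adjusted permutation p = 0.253) and 0.14 with block medians subtracted (adjusted permutation p = 0.293). Of 60 rows, 23 (38.3%) correlated positively with ADAM12 at an adjusted p of 0.05, and 0 negatively. They were 10 of the 17 rows with a median above 100 counts and 13 of the 43 weaker rows. These 13, TPTE included, had medians of 5 to 12 counts, below the negative-control level of 20.6. The rows lowest in rho were PGK1 (rho = -0.12), FMR1NB (-0.10) and TKTL1 (-0.10), none of which passed. With all 4 housekeeping genes 26 rows correlated positively and 5 negatively, among the latter PGK1 (-0.22, adjusted permutation p = 0.0078), FMR1NB (-0.18, adjusted permutation p = 0.0358) and TKTL1 (-0.17, adjusted permutation p = 0.0403).

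The correlations were weaker once the blocks were taken into account. After subtracting block medians, rho was 0.20 for the UHRF1 row, 0.21 for ALAS1, 0.04 for the MyrFlag row and 0.07 for the NeoR row, and 0 of the 60 rows passed. Within the 16 blocks, rho with the UHRF1 row had a median of 0.29 and was positive in 12, and rho with the MyrFlag row had a median of -0.02 and was positive in 8. Blocks accounted for 68.8% of the variance of the UHRF1 row, 57.2% for ALAS1 and 56.8% for the MyrFlag row. Measures of background and depth moved with ADAM12 as well. It correlated with 4 of the 8 negative-control rows at an unadjusted permutation p of 0.05, with the scaled negative-control mean (rho = 0.22, r = 0.31, adjusted permutation p = 0.0048) and with the total count of the lane (rho = 0.25, r = 0.17, adjusted permutation p = 0.0017). With the scaling factor it did not pass (rho = -0.08, r = 0.01, adjusted permutation p = 0.293). Without the 2 wells farthest from the median, r was 0.33 for the total count, 0.28 for the negative-control mean and -0.16 for the scaling factor. The permutations for these measures did not take the blocks into account. Median totals ran from 107844 in the fifteenth block to 231784 in the eighth, so these p-values do not separate depth from block.

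**Figure D5:**
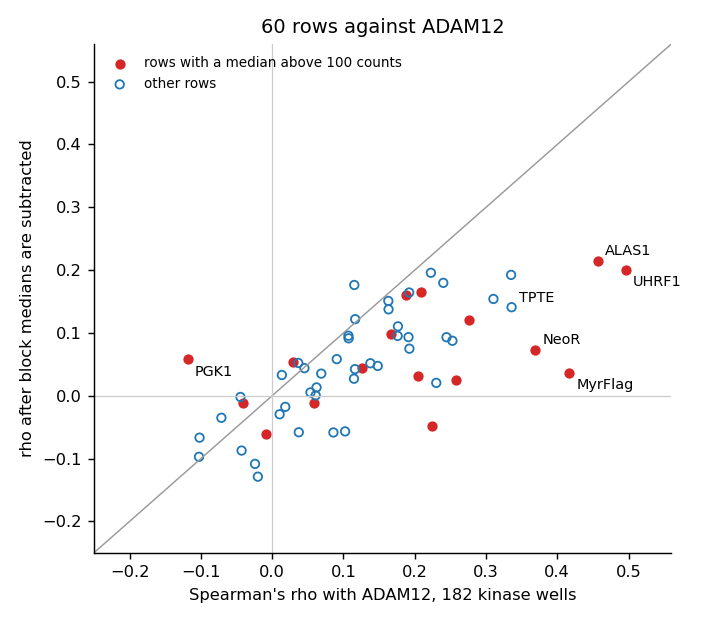
Spearman's rho of each of 60 rows with ADAM12 over the other kinase wells (horizontal) and the same after block medians are subtracted (vertical), with filled points for rows with a median above 100 counts. The rows named UHRF1, MyrFlag and NeoR and ALAS1 lie far below the diagonal, and the highest value on the vertical axis is that of ALAS1, 0.21.

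Several rows bear the names of vector parts or of other genes, and their levels were set against ADAM12. The row named MyrFlag was counted in every group, at 679.3 and 683.2 normalized counts in the IMR90 controls, 437.8 to 888.5 in kinase wells, 1221 to 1566 in the reference lanes and 2579 and 2901 in SW39. Kinase wells thus overlapped with the controls in this row, whereas the RNA mixture without any kinase vector and the SW39 samples lay above both. The NeoR row ranged from 110.1 to 293.5 in kinase wells and held 174.2 and 186.7 in the controls. The PuroR row was at or below the negative-control level in every kinase lane.

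The row named ZBTB33 showed a different pattern, with 8.94 and 15.98 normalized counts for the controls, no overlap with the kinase wells, and 149.9 or more in each of these. Since these patterns do not follow the names, the identity of these rows is uncertain and no role is assigned to them here. In the MAP3K7 well the ZBTB33 row had 21679 normalized counts, 0.94 times the kinase median. AMHR2 had the highest value of this row, 114791, with an ADAM12 level of 53.3. MAP3K8 was the seventh highest in it with 82125, whereas TBK1 (2170) and MAP3K14 (5149) were low. Over the other kinase wells ADAM12 correlated with this row at rho = 0.19 (r = 0.11, adjusted permutation p = 0.0323), and at 0.16 after block medians were subtracted (adjusted permutation p = 0.197). With the row named ZBTB38 rho was 0.21 (r = 0.13), and 0.16 after block medians were subtracted.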

How the data were processed

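Total RNA from 1 well per kinase, from the controls and from the reference mixture was counted with Nanostring probes in 197 lanes. The authors deposited for each lane the raw count of every row, made by the instrument and not normalized, together with 1 table of all lanes. The signal in this table, as deposited by the authors, equals the count times 1 factor per lane. In 8 lanes the factor was 1. The table was used as an alternative only, and the software behind it is not given in the sources used here.

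From the counts, each lane was scaled to the geometric mean of the 6 positive controls and then to that of PGK1, TBP and TUBB2A, as the study's methods describe. B2M was not used, and lanes of 1 name were averaged on the scale of log2(normalized count + 1). Z-scores used the mean and SD over kinase wells and controls without HK1, with the thresholds 2.5 and 3.5 of the methods. Poisson and ratio intervals were exact 95% intervals for counting error alone. Groups came from the titles and labels. Families and groups of neighbours were assigned from general knowledge of the kinases.

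Tests were two-sided: edgeR 4.0.16 (quasi-likelihood, SE from its F statistic, R 4.3.3) for SW39 with lanes of 1 name summed, exact permutation for kinase wells against controls, exact rank-sum for families and 100000 permutations for correlations, in Python 3.11.15 with numpy 2.4.6, pandas 2.3.3 and scipy 1.17.1. DESeq2 1.42.0 and limma 3.58.1 were alternatives for SW39. Adjusted p-values follow Benjamini-Hochberg, over all rows, all sets or, for the scaling factor, the total count and the negative-control mean, those 3 measures. Scripts were tested on simulated data. ADAM12, the families and the alternatives were chosen with earlier results of these data known, and the test of number blocks, the other settings for the share of wells above both controls, for the MAP3K7 ratios to SW39 and the reference, for SW39 with positive controls only and for the highest and lowest wells of families were chosen after seeing the data. Wells and rows named are those of a rule: MAP3K7, its neighbours, the 5 highest and 5 lowest other wells, the highest and lowest well of each family, the 5 most and 3 least correlated rows, vector and housekeeping rows, and the 5 largest rises and falls in the MAP3K7 well. PLK2, CKB and FASTK were named after their values were seen. An alignment of kinase proteins to MAP3K7 was not run.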

Additional observations from a re-analysis of the deposited data

How the results depend on the processing

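The MAP3K7 well was the highest for ADAM12 under every normalization run, at 3.75 on the log2 scale over the controls, and at 4.198 with positive controls only, 4.12 with the negative-control mean subtracted, 3.53 with a pseudocount of 8, 3.60 with first lanes only, and 3.69 to 3.81 without 1 control. The reference RNA stood 2.00 over the controls, and 2.30 with all 4 housekeeping genes, 3.05 with positive controls only, 2.78 in the deposited table, where its lanes are not scaled, 2.30 with the negative-control mean subtracted, 1.82 with a pseudocount of 8, and 1.94 to 2.06 without 1 control. For SW39, positive controls only gave 2.24, leaving out 1 sample gave 1.29 to 1.66 and the replicate block, a fit on numbers that the labels do not tie to shared cultures (correlation of deviations 0.19), gave 1.53 with an adjusted p of 2.3e-15 in edgeR; by limma the adjusted p was 0.0046. Kinase wells differed from controls by 0.56 (exact permutation p = 0.0362) with positive controls only, and by 0.24 to 0.36 without 1 control. The wells with a Z-score above 2.5 fell from 2 to 1 (MAP3K7) with positive controls only, in the deposited table and without wells scaled by more than 2. No family passed under any alternative, also not with MAP3K7 included. The difference of 12 of the 25 sets changed sign under at least 1 alternative, among them the TGF-beta family receptors (-0.0096 with the negative-control mean subtracted).

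Rows correlated with ADAM12 numbered 31 with all 4 housekeeping genes, 57 with positive controls only, 7 with the negative-control mean subtracted and 0 with blocks centred. Of all 60 rows the sign of the correlation turned for 8, 10, 6 and 8 under these settings, among them 1 of the 23 called rows with the negative-control mean subtracted and 1, the row named Tet1 (0.22 to -0.05), with blocks centred. Among the most and least correlated, vector and housekeeping rows named by the rule, it turned with all 4 housekeeping genes for TUBB2A (0.20) and B2M (-0.16). With positive controls only it turned for TKTL1 (0.24), FMR1NB (0.27), PGK1 (0.35) and TUBB2A (0.35), with the negative-control mean subtracted for TKTL1 (0.025) and with blocks centred for PGK1 (0.058). The row named ITPR2, among the falls in the MAP3K7 well, also turned with blocks centred (0.059 to -0.011). The cause was not tested. With a median of 46 ADAM12 counts per kinase lane, counting error limits every single well other than MAP3K7.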
